A study of Saccharomyces cerevisiae with 12 samples.

Results

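Strains of budding yeast (Saccharomyces cerevisiae) that carried the plasmid pRS416 and differed in their labelled level of S-adenosylmethionine (SAM) were compared by RNA sequencing at 36 h. Strain YJ-09 was labelled high SAM and strain YJ-08 low SAM, with 3 libraries of each, so 6 of the 12 libraries of the study entered the comparison. The other 6 came from a second pair, high-SAM YJ-06 and low-SAM YJ-04, which held a module for the fungal pigment bikaverin. Features were kept where their mean over the 6 pRS416 libraries reached 1 FPKM (fragments per kilobase of gene, scaled to the reads of the library), which left 6342 of the 6818 listed and 476 below. Plasmid pRS416, a shuttle vector selected by URA3, was carried by both strains. The sources used here do not give how the level of SAM was raised, the parent strain, its mating type or ploidy, and no measurement of SAM is in the files used. The labels name 1 strain for each level of SAM, so the level and anything else that differs between the strains cannot be told apart. They do not say whether the libraries came from separate cultures, so p-values reflect the spread among these samples alone, which may be technical.

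SAM is made from methionine and ATP by the SAM synthetases Sam1 and Sam2 and gives the methyl group for most methylation in the cell. After the transfer it is left as S-adenosylhomocysteine, which is cleared to homocysteine and adenosine, and homocysteine is methylated back to methionine or drained to cysteine and glutathione. A yeast culture that has used up its glucose turns to ethanol and acetate, builds up the respiratory chain under the Hap activators and, when carbon runs out, stops dividing and accumulates stress proteins. Haploid cells of mating type a or alpha each express their own pheromone and receptor, and in cells that hold a and alpha information together the a1 and alpha2 proteins jointly repress the genes of the haploid state.

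Depth was similar in all pRS416 libraries, with 40.1 to 45.1 M reads recovered on features matched to the reference, and 3 reads on a gene of 1 kb correspond to 0.0665 to 0.0737 FPKM. The first principal component held 95.1% of the variance of log2(FPKM + 1) and separated the high-SAM from the low-SAM libraries. The libraries of a group were close to each other, with a median SD on that scale of 0.11 in high SAM and 0.07 in low SAM. The second component held 1.91% and mainly set the high-SAM libraries 2 and 3 apart. The 10 highest features took 8.56% to 9.86% of the summed FPKM in high SAM and 19.9% to 20.2% in low SAM, a difference that moves with the groups and whose part in the results was not tested. Traces of the bikaverin genes, at most 1.26 FPKM, were listed in these libraries although the labels give these strains pRS416 and not the module.

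With limma on log2(FPKM + 1) and Benjamini-Hochberg adjustment over all 6342 features, 4918 features (77.5%) differed at an adjusted p below 0.05. Of these, 2481 (39.1% of those tested) were higher in high SAM and 2437 (38.4%) lower, and 880 (13.9%) rose and 803 (12.7%) fell by 2-fold or more on this scale. The 3 and 3 libraries did not overlap in 5095 features (80.3%). A member of a gene list that was called is therefore the rule here, and the lists are described by the direction and size of their changes. The median log2 fold change over all features was -0.01, and 5% lay below -1.72 and 5% above 1.74. In bulk RNA, fewer cells of a type and less RNA per cell cannot be told apart. Below, ± gives the SD of 3 libraries, SE is that of the log2 fold change on the log2(FPKM + 1) scale, which understates the change of genes at low levels, and adjusted p is from limma over all features. A value that stands alone in parentheses after a gene is its log2 fold change, and a median is that of log2 fold changes.

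Across 68 gene lists, the medians ran from -2.67 for the alpha-specific genes to 2.08 for respiratory complex III and cytochrome c among the lists with at least 4 tested members. Genes of respiration, the TCA cycle, iron uptake, the cell wall, G1 cyclins and heat shock lay mostly above 0. Genes of mating, galactose use, stationary phase, beta-oxidation, sporulation, flocculation and nitrogen scavenging lay mostly below 0.

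**Figure D1:**
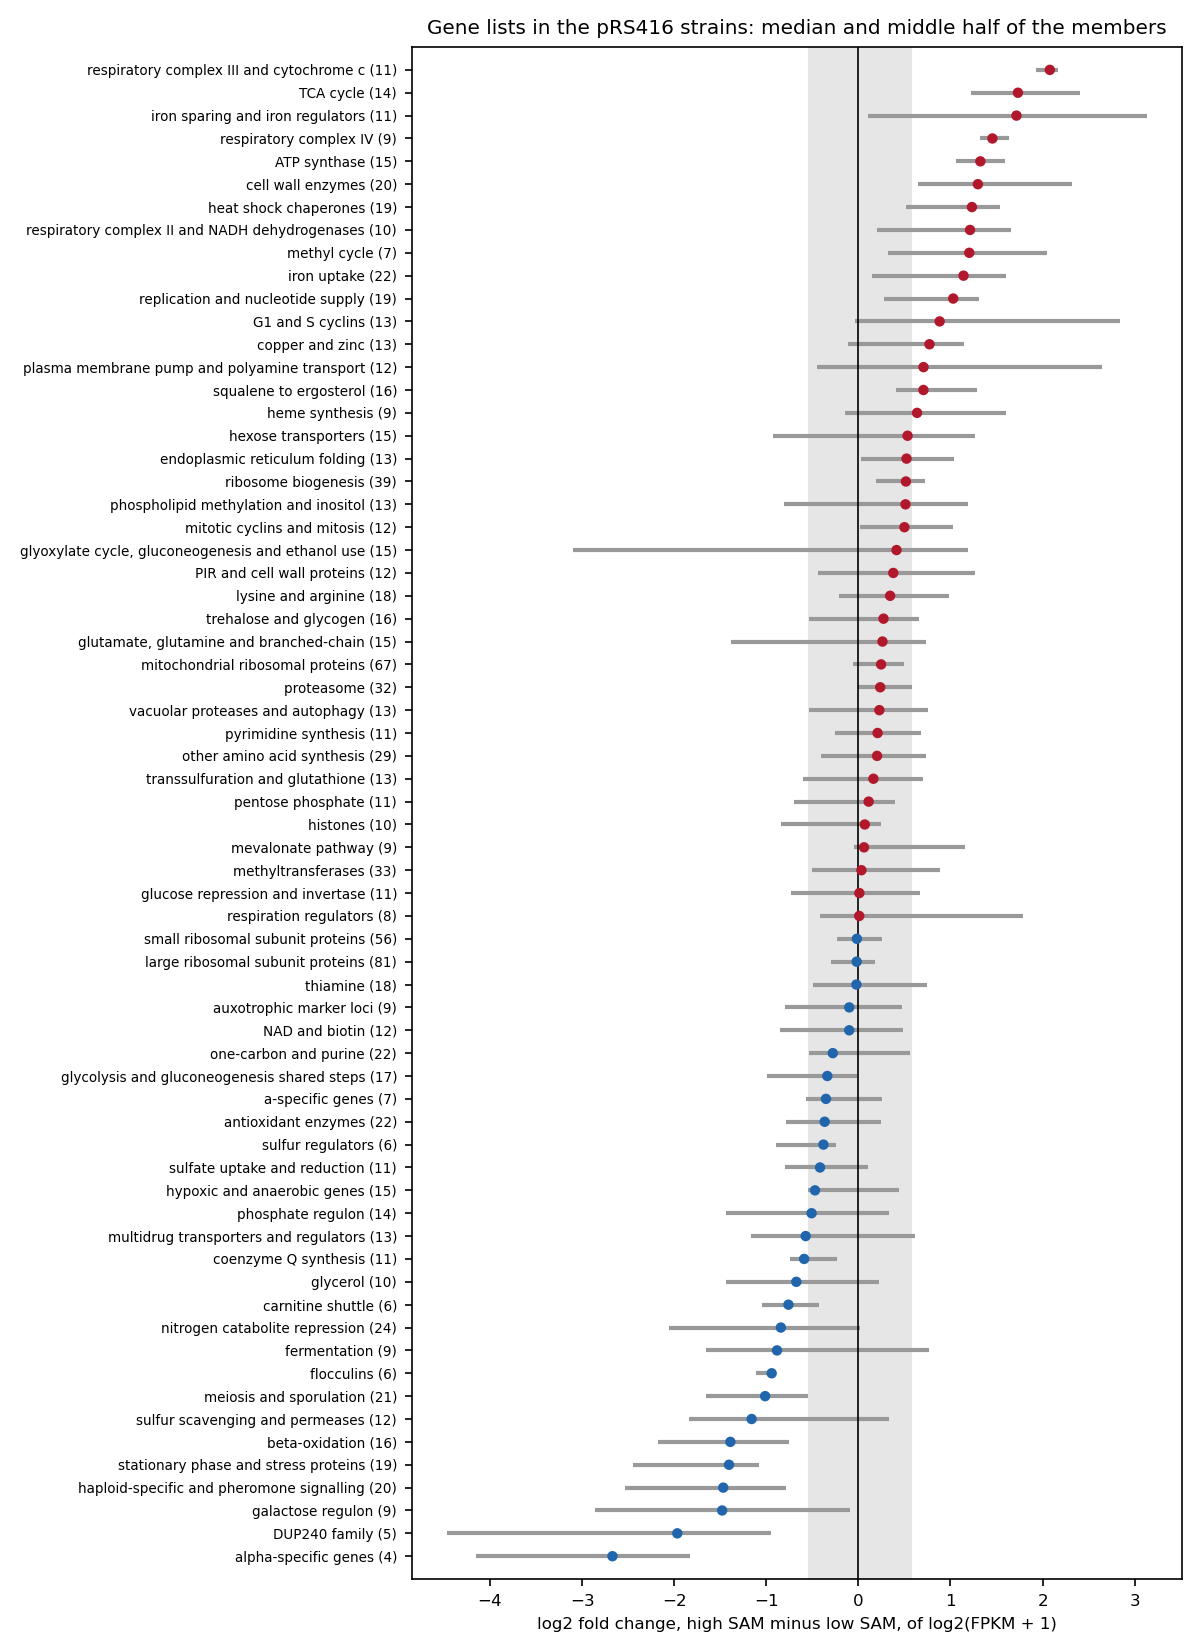
Median log2 fold change (high SAM minus low SAM, of log2(FPKM + 1), x axis) for each of 66 gene lists with at least 4 tested members (y axis, number of tested members in brackets). Points are medians (red above 0, blue below 0), grey lines span the quartiles of the members, the black line is the median of all 6342 features at -0.01 and the grey band spans the quartiles of all features, -0.54 to 0.57.

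The largest rise was in CIS3 (YJL158C, chromosome X, 122265 to 122948 on the minus strand in R64), a PIR-type cell wall mannoprotein, with 689, 973 and 801 FPKM in the high-SAM libraries, against 4.73, 5.44 and 5.63 FPKM in the low-SAM libraries. All 3 high-SAM libraries lay far above the low-SAM ones, on average 156-fold higher (log2 fold change 7.02, SE 0.12, adjusted p = 2.5e-10). The high-affinity glucose transporter gene HXT4 followed, at 3054, 3546 and 3613 FPKM in the high-SAM libraries, against 28.4, 29.6 and 29.8 FPKM in the low-SAM libraries (log2 fold change 6.81, SE 0.08, adjusted p = 7.0e-11). SCW10, for a glucanase-like cell wall protein, had 1475, 1736 and 1692 FPKM with high SAM and 17.2, 17.2 and 18.6 FPKM with low SAM (log2 fold change 6.45, adjusted p = 7.0e-11). PCL1, a G1 cyclin of the kinase Pho85, reached 538, 641 and 575 FPKM with high SAM and 5.40, 7.52 and 5.24 FPKM with low SAM (log2 fold change 6.39, adjusted p = 4.8e-10). Lack of overlap between the groups was a condition for entering the 12 largest rises. HSP30, for a plasma membrane protein that dampens the proton pump Pma1, was at 10099, 16197 and 11904 FPKM in the high-SAM libraries, against 197, 183 and 198 FPKM in the low-SAM libraries, the highest level among these genes. The other 7 of the 12 largest rises were in HMRA1 and CYC1, described below, and in TPO2, TOS6, YGR139W, GAS1 and UPS2. TPO2, a polyamine exporter gene, averaged 1194 ± 112 FPKM in high SAM and 22.4 ± 1.10 FPKM in low SAM, a split from its copy TPO3 at 97.2% identity that is uncertain. TOS6, for a cell wall protein, averaged 767 FPKM in high SAM against 18.3 FPKM in low SAM, GAS1, for a glucanosyltransferase that elongates wall glucan, 609.6 FPKM in high SAM against 17.9 FPKM in low SAM, and UPS2, for a mitochondrial lipid regulator, 1268 FPKM in high SAM against 43.8 FPKM in low SAM.

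TIP1, for a cell wall mannoprotein, showed the largest fall, with 13.8, 13.9 and 14.4 FPKM in the high-SAM libraries, against 2942, 3054 and 3069 FPKM in the low-SAM libraries. The mean was 216-fold lower in high SAM (log2 fold change -7.65, SE 0.06, adjusted p = 6.0e-12). YCL048W-A, a gene of unknown function, had 5.56, 9.31 and 8.99 FPKM with high SAM and 1454, 1629.95 and 1702 FPKM with low SAM (log2 fold change -7.50, adjusted p = 8.0e-10), and YDL218W, likewise of unknown function, 17.3, 20.7 and 18.5 FPKM with high SAM and 1589, 1589.5 and 1594 FPKM with low SAM (log2 fold change -6.33, adjusted p = 7.0e-11). SPS100, a spore wall maturation gene, had 49.8, 47.4 and 61.7 FPKM in the high-SAM libraries, against 5494, 5487 and 5447 FPKM in the low-SAM libraries (log2 fold change -6.67, SE 0.10, adjusted p = 1.4e-10). SPS100 lies opposite the transcript SUT169, and whether the counts used strand is not known. The acetate transporter gene ADY2 was at 11.4, 13.9 and 13.1 FPKM with high SAM and 1178, 1239 and 1024 FPKM with low SAM (log2 fold change -6.37, adjusted p = 1.4e-10). UIP3, of the DUP240 family of membrane proteins, fell to 0.488, 0.416 and 0.852 FPKM in the high-SAM libraries, against 128, 135 and 123 FPKM in the low-SAM libraries (log2 fold change -6.36, SE 0.11, adjusted p = 2.8e-10). MF(ALPHA)1, the transfer RNA gene tN(GUU)P and 4 features at or near 0 in high SAM (YOL164W-A, YDL247W-A, YIL014C-A and YER138W-A) complete the 12 largest falls. As for the rises, only features without overlap between the groups could enter these 12.

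In the methyl cycle 5 of 7 genes rose and 2 fell, so the pathway did not move as a block. Both SAM synthetase genes rose, SAM1 (YLR180W, chromosome XII, 515262 to 516410 on the plus strand) to 312, 356 and 370.2 FPKM in the high-SAM libraries, against 100.4, 94.9 and 95.6 FPKM in the low-SAM libraries (log2 fold change 1.82, SE 0.08, adjusted p = 5.0e-08). SAM2 (YDR502C, chromosome IV, 1453310 to 1454464 on the minus strand) was uneven within high SAM, at 457, 777 and 445 FPKM in the high-SAM libraries, against 109, 114 and 109.8 FPKM in the low-SAM libraries (log2 fold change 2.27, SE 0.19, adjusted p = 3.5e-06); library 2 stood above the other two, yet all 3 exceeded every low-SAM library. SAH1, which hydrolyses S-adenosylhomocysteine, averaged 262 ± 19.1 FPKM in high SAM and 50.5 ± 2.83 FPKM in low SAM, and the adenosine kinase gene ADO1 118 ± 11.6 FPKM in high SAM and 50.7 ± 2.74 FPKM in low SAM. The methionine synthase gene MET6 fell, with 332, 334 and 321 FPKM with high SAM and 456, 459 and 429.6 FPKM with low SAM (log2 fold change -0.45, SE 0.06, adjusted p = 1.8e-04), as did the homocysteine methyltransferase gene MHT1 (log2 fold change -0.38, adjusted p = 0.0088).

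Sulfur supply moved the other way for most genes. In sulfate uptake and reduction 2 of 11 genes rose and 7 fell (median log2 fold change -0.42). The sulfate permease gene SUL1 fell to 15.6, 14.4 and 20.1 FPKM in the high-SAM libraries, against 212, 205 and 185 FPKM in the low-SAM libraries, with no overlap (log2 fold change -3.52, SE 0.11, adjusted p = 9.9e-09). MET14, for APS kinase, and MET5, for a sulfite reductase subunit, fell (-0.98 and -1.06), whereas MET10, for the other sulfite reductase subunit, rose to 200.2 FPKM in high SAM against 53.8 FPKM in low SAM (log2 fold change 1.87, adjusted p = 1.3e-07). In sulfur scavenging 3 of 12 rose and 7 fell. The taurine and sulfonate dioxygenase gene JLP1 averaged 33.6 ± 2.70 FPKM in high SAM and 173 ± 2.90 FPKM in low SAM and the cysteine transporter gene YCT1 18.1 ± 2.16 FPKM in high SAM and 99.2 ± 5.13 FPKM in low SAM, while the low-affinity methionine permease gene MUP3 rose to 261 FPKM in high SAM against 68.6 FPKM in low SAM. None of the 6 sulfur regulator genes tested rose and 4 fell. Among these were CBF1 (-1.09) and MET4 (-0.50), the DNA-binding partner and the activator of the sulfur genes. The fall of MET30 (log2 fold change -0.24, adjusted p = 0.021) was lost without low-SAM library 1 (adjusted p = 0.079), low-SAM library 2 (adjusted p = 0.075) or high-SAM library 1 (adjusted p = 0.065). In transsulfuration and glutathione 6 of 13 rose and 4 fell. Glutathione reductase, GLR1 (YPL091W, chromosome XVI, 375502 to 376953 on the plus strand), changed most, at 1667, 1888 and 1792 FPKM in the high-SAM libraries, against 79.7, 76.1 and 76.2 FPKM in the low-SAM libraries (log2 fold change 4.51, SE 0.07, adjusted p = 1.6e-10). CYS3, the cystathionine gamma-lyase gene, rose (1.44) and CYS4, the cystathionine beta-synthase gene, fell (-0.87).

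The nuclear genes of the respiratory chain rose together. All 11 genes of complex III and cytochrome c rose (median 2.08), as did all 9 of complex IV (median 1.46) and all 15 of ATP synthase (median 1.32), against 39.1% of all features. Iso-1-cytochrome c, CYC1 (YJR048W, chromosome X, 526335 to 526664 on the plus strand), had 948, 1121 and 1108 FPKM in the high-SAM libraries, against 29.4, 29.4 and 27.3 FPKM in the low-SAM libraries (log2 fold change 5.15, SE 0.08, adjusted p = 1.6e-10). CYC7, the isoform usually high without oxygen, rose as well, at 1877, 2525 and 2019.9 FPKM in the high-SAM libraries, against 91.0, 88.5 and 87.0 FPKM in the low-SAM libraries (log2 fold change 4.56, SE 0.11, adjusted p = 1.4e-09). The low-SAM libraries of these genes were close together and far below all high-SAM ones. Among the other core genes, QCR9 of complex III averaged 4539 ± 316 FPKM in high SAM and 988 ± 15.7 FPKM in low SAM, COX5A of complex IV 2922 ± 391 FPKM in high SAM and 425 ± 18.8 FPKM in low SAM and ATP2, the catalytic beta subunit of ATP synthase, 2677 ± 224 FPKM in high SAM and 466 ± 15.4 FPKM in low SAM. COX5B, the hypoxic isoform of COX5A, also rose (2.26).

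Complex II and the NADH dehydrogenases split by isoform. In that list 7 of 10 rose and 2 fell. NDE1, the external NADH dehydrogenase, was at 1985, 2789 and 2162 FPKM in the high-SAM libraries, against 162, 165 and 166 FPKM in the low-SAM libraries (log2 fold change 3.79, SE 0.12, adjusted p = 7.8e-09). Its isoform NDE2 fell to 75.1, 81.7 and 96.2 FPKM in the high-SAM libraries, against 467, 476 and 465 FPKM in the low-SAM libraries (log2 fold change -2.47, SE 0.09, adjusted p = 1.9e-08), and the lactate dehydrogenase gene CYB2 fell (-1.03). The isoforms thus lay in opposite order in the groups. In the TCA cycle 12 of 14 genes rose and 1 fell (median 1.73). The isocitrate dehydrogenase subunit genes IDH1 and IDH2 averaged 2297 ± 291 FPKM in high SAM and 117 ± 2.75 FPKM in low SAM, and 1339 ± 132 FPKM in high SAM and 68.0 ± 2.97 FPKM in low SAM, with log2 fold changes of 4.27 and 4.28. Fumarase, FUM1, averaged 1378 ± 152 FPKM in high SAM and 171 ± 10.3 FPKM in low SAM. The member that fell was CIT3, for a mitochondrial methylcitrate and citrate synthase, with 65.4, 61.2 and 71.9 FPKM with high SAM and 581, 572 and 596 FPKM with low SAM.

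HAP4, the activating subunit whose level sets the activity of the Hap2/3/4/5 complex, had the largest change among the 8 respiration regulators listed, at 1393, 1861 and 1281 FPKM in the high-SAM libraries, against 94.5, 108 and 112 FPKM in the low-SAM libraries (log2 fold change 3.82, SE 0.13, adjusted p = 1.6e-08). HAP3 rose (1.68) and so did the hypoxic repressor gene ROX1, at 657 ± 91.3 FPKM in high SAM and 152 ± 2.84 FPKM in low SAM. HAP1, the heme-responsive activator, fell to 40.1 ± 5.79 FPKM in high SAM, against 84.2 ± 1.47 FPKM in low SAM. In the 8 regulators 4 rose and 3 fell. In the 250 bases that begin 350 bases upstream of the start codon (RefSeq, R64), the Hap-binding core CCAAT stood on either strand in all 15 ATP synthase genes, 8 of 9 complex IV genes, 9 of 10 genes of complex II and NADH dehydrogenases, 8 of 11 genes of complex III and cytochrome c and 11 of 14 TCA cycle genes. It stood in 37.9% of 5810 tested genes with such a window. The windows of CYC1 and CYC7 held no exact match. Variants of the core were not searched for, so this does not show that Hap sites are lacking there. The window of CYC1 is shown because this gene rose most in the chain.
CYC1 (chrX:525985-526234, plus strand): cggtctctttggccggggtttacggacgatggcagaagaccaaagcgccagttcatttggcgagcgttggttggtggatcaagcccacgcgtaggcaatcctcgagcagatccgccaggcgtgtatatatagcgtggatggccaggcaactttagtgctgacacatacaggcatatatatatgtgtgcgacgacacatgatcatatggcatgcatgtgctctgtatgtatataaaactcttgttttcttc

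Carbon use outside the TCA cycle showed a mixed pattern. In glyoxylate cycle, gluconeogenesis and ethanol use 8 of 15 genes rose and 7 fell. The gluconeogenic enzymes rose, PCK1, for phosphoenolpyruvate carboxykinase, at 2288, 2678 and 2502 FPKM in the high-SAM libraries, against 173, 166 and 148 FPKM in the low-SAM libraries (log2 fold change 3.93, SE 0.09, adjusted p = 1.3e-09) and FBP1, for fructose-1,6-bisphosphatase, at 775, 879 and 882 FPKM with high SAM and 72.2, 70.3 and 57.0 FPKM with low SAM. The acetaldehyde dehydrogenase gene ALD4 fell with ADY2, to 173, 209 and 204 FPKM in the high-SAM libraries, against 3411, 3364 and 3290.3 FPKM in the low-SAM libraries (log2 fold change -4.10, SE 0.09, adjusted p = 9.7e-10). In peroxisomal beta-oxidation 2 of 16 rose and 13 fell (median -1.39). The acyl-CoA oxidase gene POX1 averaged 57.3 ± 4.21 FPKM in high SAM and 451 ± 11.02 FPKM in low SAM, and the isomerase genes ECI1 and DCI1 and the peroxisomal catalase gene CTA1 fell (-3.07, -2.72 and -2.68). The fatty acyl-CoA synthetase gene FAA1 rose instead (1.12). In the carnitine shuttle, which carries acetyl units into mitochondria, 1 of 6 rose and 4 fell, YAT2 most (-1.67).

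**Figure D2:**
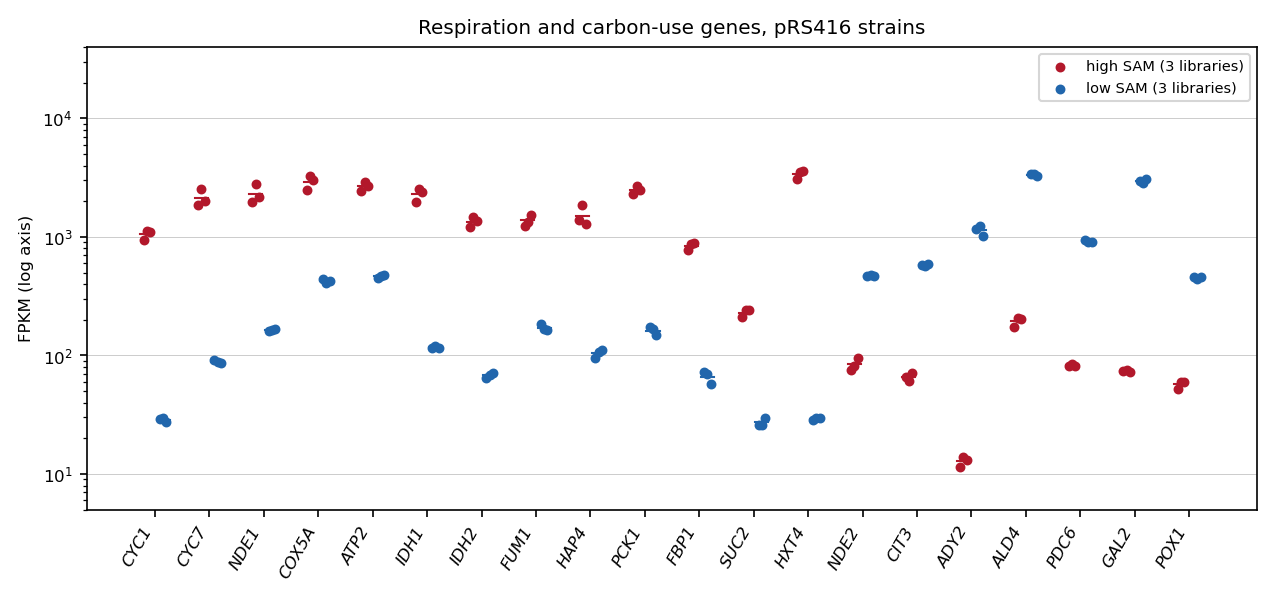
FPKM (log axis) of 20 genes of respiration and carbon use in each library of the pRS416 strains, high SAM (red) left of low SAM (blue), with bars at the group means. The 3 high-SAM libraries lie above the 3 low-SAM libraries for CYC1 to HXT4 and below them for NDE2 to POX1, for example 948 to 1121 FPKM in high SAM against 27.3 to 29.4 FPKM in low SAM for CYC1.

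Sugar transport and breakdown genes also split. In the galactose regulon 2 of 9 rose and 6 fell (median -1.48). The galactose permease gene GAL2 had 73.6, 75.5 and 72.8 FPKM in the high-SAM libraries, against 2977, 2866 and 3105 FPKM in the low-SAM libraries (log2 fold change -5.31, SE 0.07, adjusted p = 7.0e-11), and GAL1, GAL7 and GAL10, for the Leloir enzymes, fell (-2.93, -2.43 and -2.86); GAL1 and GAL10 overlap a noncoding transcript, so reads there are uncertain. GAL3 and PGM2 rose (0.62 and 0.69). Of 15 hexose transporters 8 rose and 7 fell, with HXT8 at 28.8 FPKM in high SAM against 9.01 FPKM in low SAM and HXT10 at 1.82 FPKM in high SAM against 43.3 FPKM in low SAM. Invertase, SUC2, was at 209.8, 241 and 240.4 FPKM in the high-SAM libraries, against 26.1, 26.1 and 29.7 FPKM in the low-SAM libraries (log2 fold change 3.03, SE 0.08, adjusted p = 3.0e-09) and the isomaltase gene IMA1 rose (2.96), while MIG1, a repressor of both kinds of gene under glucose, fell to 55.4 ± 9.07 FPKM in high SAM, against 154 ± 8.001 FPKM in low SAM. In the shared steps of glycolysis 3 of 17 rose and 9 fell; the phosphoglycerate kinase gene PGK1 averaged 984 ± 154 FPKM in high SAM and 2774 ± 89.2 FPKM in low SAM. TDH3 and ENO2 also fell (-1.68 and -1.69) but have close copies, so their values are uncertain. Among fermentation genes the pyruvate decarboxylase isoform PDC6 fell to 81.4, 85.2 and 80.9 FPKM in the high-SAM libraries, against 949, 903 and 913 FPKM in the low-SAM libraries (log2 fold change -3.47, SE 0.06, adjusted p = 3.1e-10), and the alcohol dehydrogenase gene ADH1 rose to 2393 ± 418 FPKM in high SAM, against 807 ± 36.7 FPKM in low SAM. The pentose phosphate isoforms moved apart, with the transketolase gene TKL1 at 305, 295 and 375 FPKM in the high-SAM libraries, against 17.5, 18.4 and 17.1 FPKM in the low-SAM libraries (log2 fold change 4.12, SE 0.09, adjusted p = 1.1e-09) and its isoform TKL2 at 355 ± 45.9 FPKM in high SAM and 1127 ± 21.4 FPKM in low SAM. GND1, for 6-phosphogluconate dehydrogenase, rose (3.03).

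Storage and osmolyte genes were mixed. In trehalose and glycogen metabolism 10 of 16 rose and 5 fell. The glycogen-breaking genes GPH1 and GDB1 rose (2.03 and 1.63), and the glycogen primer gene GLG1 fell (-1.07). In glycerol metabolism 3 of 10 rose and 6 fell. The dihydroxyacetone kinase gene DAK2 had 243, 192 and 329 FPKM in the high-SAM libraries, against 20.6, 21.1 and 20.8 FPKM in the low-SAM libraries (log2 fold change 3.51, SE 0.16, adjusted p = 7.9e-08), and the glycerol-3-phosphatase isoforms moved apart, GPP2 to 399 FPKM in high SAM against 102 FPKM in low SAM and GPP1 to 151 FPKM in high SAM against 559 FPKM in low SAM.

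Iron acquisition rose across most of its parts. Of 22 iron uptake genes 16 rose and 5 fell (median 1.14), and of 11 iron sparing genes and regulators 8 rose and 3 fell (median 1.72). FIT3 (YOR383C, chromosome XV, 1060441 to 1061055 on the minus strand), a cell wall mannoprotein that retains iron siderophores, had 3040.2, 3422 and 3835 FPKM in the high-SAM libraries, against 134, 129.7 and 136 FPKM in the low-SAM libraries (log2 fold change 4.67, SE 0.09, adjusted p = 5.8e-10). The multicopper ferroxidase gene FET3 (YMR058W, chromosome XIII, 388822 to 390732 on the plus strand) was at 774, 736 and 936 FPKM in the high-SAM libraries, against 38.9, 39.8 and 40.3 FPKM in the low-SAM libraries (log2 fold change 4.32, SE 0.09, adjusted p = 8.0e-10), and its partner permease FTR1 averaged 676 ± 60.2 FPKM in high SAM and 44.1 ± 3.73 FPKM in low SAM. High-SAM library 3 was the highest in all 3 of these genes, and no groups overlapped, as in 80.3% of all features. The siderophore transporter gene ARN1 averaged 681 ± 58.5 FPKM in high SAM and 59.8 ± 2.05 FPKM in low SAM and the heme oxygenase gene HMX1 452 ± 50.9 FPKM in high SAM and 17.7 ± 1.11 FPKM in low SAM. TIS11, whose product degrades mRNAs of iron-using proteins, averaged 364 ± 23.8 FPKM in high SAM and 34.9 ± 2.14 FPKM in low SAM. The members that fell included the reductase genes FRE3 and FRE4 (-0.71 and -0.77) and CCC1, which moves iron into the vacuole (-1.18).

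The core GCACCC of Aft1 and Aft2 binding sites stood on either strand in 16 of the 22 iron uptake windows, against 4.01% of the 5810 windows. The windows of FIT3 and FET3 are shown because these genes had the smallest p of the list, with GCACCC or its reverse complement in capitals. FIT3 holds 3 matches, starting 284, 268 and 184 bases upstream of the start codon, and FET3 holds 1, at 250.
FIT3 (chrXV:1061156-1061405, minus strand): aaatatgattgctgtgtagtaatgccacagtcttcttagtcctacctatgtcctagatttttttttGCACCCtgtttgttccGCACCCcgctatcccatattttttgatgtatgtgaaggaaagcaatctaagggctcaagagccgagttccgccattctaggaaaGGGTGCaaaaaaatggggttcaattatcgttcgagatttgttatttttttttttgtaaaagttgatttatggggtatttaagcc
FET3 (chrXIII:388472-388721, plus strand): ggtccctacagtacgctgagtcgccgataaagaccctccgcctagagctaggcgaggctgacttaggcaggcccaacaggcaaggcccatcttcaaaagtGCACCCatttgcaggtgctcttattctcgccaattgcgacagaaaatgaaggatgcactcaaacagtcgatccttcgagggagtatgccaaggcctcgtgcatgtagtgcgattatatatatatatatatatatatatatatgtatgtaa

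Other metal and heme genes rose less evenly. In heme synthesis 6 of 9 rose and 2 fell, HEM13, for coproporphyrinogen oxidase, at 101.4 ± 12.5 FPKM in high SAM and 16.8 ± 1.46 FPKM in low SAM and HEM15, for ferrochelatase, at 58.3 ± 2.07 FPKM in high SAM and 124 ± 5.71 FPKM in low SAM. In copper and zinc genes 7 of 13 rose and 1 fell. The high-affinity zinc transporter gene ZRT1 had 739, 711 and 880.1 FPKM in the high-SAM libraries, against 52.1, 50.7 and 53.1 FPKM in the low-SAM libraries (log2 fold change 3.87, SE 0.09, adjusted p = 1.1e-09), and the copper-zinc superoxide dismutase gene SOD1 fell (-1.53). In the phosphate regulon 5 of 14 rose and 7 fell; PHO8, for vacuolar alkaline phosphatase, rose to 410.05 FPKM in high SAM against 73.5 FPKM in low SAM and PHO89, for a phosphate transporter, fell to 2.00 FPKM in high SAM against 29.1 FPKM in low SAM.

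Genes that define mating type differed between the strains. HMRA1 (YCR097W, chromosome III, 293835 to 294321 on the plus strand), the a1 gene as annotated at the silent HMR locus of the alpha-type reference, had 138, 133 and 81.7 FPKM in the high-SAM libraries, against 0.124, 0 and 0 FPKM in the low-SAM libraries (log2 fold change 6.79, SE 0.18, adjusted p = 3.4e-09). Over the 3 low-SAM libraries 2 reads fell on it, against 5679 in high SAM, a ratio of 2890 with an exact 95% interval of 799.6 to 23867 for counting error. The reference holds a1 at HMR alone, so the files do not tell HMR from a MAT locus of a type. The alpha2 genes at MAT and HML, MATALPHA2 and HMLALPHA2, reached at most 0.587 FPKM in high SAM and 1.16 FPKM in low SAM. Their means were under the minimum for a test. They are identical copies of each other, so the level of alpha2 is uncertain. The alpha1 gene at HML, HMLALPHA1, had 0 FPKM in all high-SAM libraries and at most 0.0901 FPKM in low SAM. The alpha1 gene at MAT, MATALPHA1, is a copy of it at 100% identity and was not analysed here, so the level of alpha1 is uncertain. HMRA2, at 1.62 ± 0.535 FPKM in high SAM and 1.71 ± 1.06 FPKM in low SAM, overlapped between the groups and shares its sequence with HMLALPHA2. All 4 alpha-specific genes fell (median -2.67, against 38.4% of all features called lower). The pheromone gene MF(ALPHA)1 (YPL187W, chromosome XVI, 193648 to 194145 on the plus strand) was at 4.07, 3.01 and 3.96 FPKM in the high-SAM libraries, against 697, 684 and 740.5 FPKM in the low-SAM libraries (log2 fold change -7.25, SE 0.09, adjusted p = 7.0e-11). The a-factor receptor gene STE3 had 11.3, 10.7 and 13.4 FPKM with high SAM and 105, 109 and 116 FPKM with low SAM (log2 fold change -3.13, adjusted p = 3.8e-09), and the alpha-agglutinin gene SAG1 26.3, 27.5 and 31.3 FPKM with high SAM and 129, 133 and 144 FPKM with low SAM (log2 fold change -2.22, adjusted p = 1.8e-08). The minor pheromone gene MF(ALPHA)2 fell less, to 25.3 ± 3.12 FPKM in high SAM, against 40.7 ± 0.769 FPKM in low SAM. In all 4 genes the lowest low-SAM library was above the highest high-SAM one, and 80.3% of all features likewise had no overlap in either direction.

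The 7 a-specific genes were low in both strains, with means of 4.80 to 36.6 FPKM in high SAM and 2.93 to 60.1 FPKM in low SAM. Of these 2 rose and 4 fell (median -0.35). The largest change was in AGA2, for a subunit of a-agglutinin, at 5.49, 4.18 and 5.89 FPKM in the high-SAM libraries, against 13.5, 15.1 and 13.0 FPKM in the low-SAM libraries (log2 fold change -1.27, SE 0.13, adjusted p = 1.4e-05), with no overlap. STE6, for the a-factor exporter, fell (log2 fold change -0.43, adjusted p = 0.0021) and ASG7, which is induced in a cells by pheromone, rose (log2 fold change 0.57, adjusted p = 0.01). The a-pheromone gene MFA1 fell to 36.5 ± 5.73 FPKM in high SAM, against 60.1 ± 1.26 FPKM in low SAM, MFA2 overlapped between the groups at 36.6 ± 8.79 FPKM in high SAM and 38.1 ± 6.19 FPKM in low SAM, and BAR1, for the protease that degrades alpha-factor, rose to 9.64 ± 1.01 FPKM in high SAM, against 4.67 ± 0.923 FPKM in low SAM. The fall of the alpha-factor receptor gene STE2 (log2 fold change -0.35, adjusted p = 0.025) was lost without low-SAM library 2 (adjusted p = 0.08), low-SAM library 3 (adjusted p = 0.062) or high-SAM library 2 (adjusted p = 0.067), with quantile scaling (adjusted p = 0.057) and with equal sums of FPKM (adjusted p = 0.076).

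Among 20 haploid-specific and pheromone signalling genes 3 rose and 17 fell (median -1.47). NEJ1 (YLR265C, chromosome XII, 674427 to 675455 on the minus strand), a factor of DNA end joining made in haploid cells, had 1.07, 0.954 and 1.06 FPKM in the high-SAM libraries, against 78.6, 80.4 and 80.8 FPKM in the low-SAM libraries (log2 fold change -5.32, SE 0.08, adjusted p = 1.4e-10). The subunits of the pheromone-coupled G protein all fell. STE4, the beta subunit, was at 8.39, 9.94 and 9.25 FPKM with high SAM and 209, 196 and 202 FPKM with low SAM (log2 fold change -4.32, adjusted p = 2.3e-10), STE18, the gamma subunit, at 2.70, 2.43 and 1.46 FPKM with high SAM and 104, 102 and 96.3 FPKM with low SAM (log2 fold change -5.01, adjusted p = 3.8e-09), and GPA1, the alpha subunit, at 13.5, 13.5 and 13.2 FPKM with high SAM and 81.8, 79.1 and 76.6 FPKM with low SAM (log2 fold change -2.48, adjusted p = 1.8e-09). The groups did not overlap in any of these 4 genes, as was so in 80.3% of all features. The members that rose included GIC2, an effector of the polarity GTPase Cdc42, at 135 ± 19.0 FPKM in high SAM and 6.63 ± 0.219 FPKM in low SAM, and the phosphatase gene MSG5 (0.78). HO, for the endonuclease of mating-type switching, averaged 1.42 ± 0.0674 FPKM in high SAM and 5.71 ± 0.444 FPKM in low SAM.

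**Figure D3:**
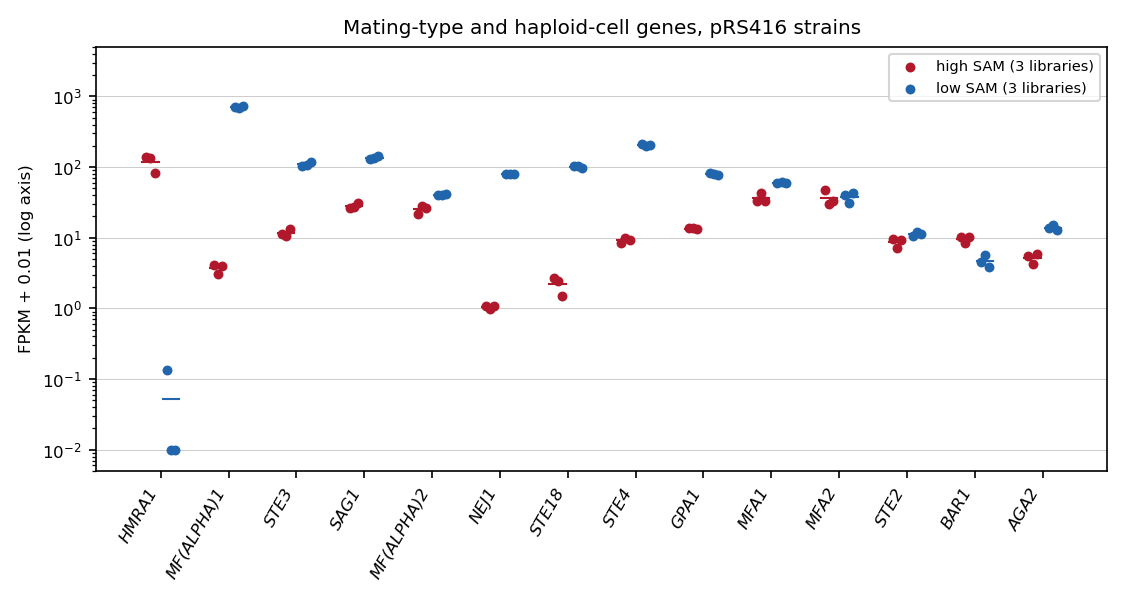
FPKM plus 0.01 (log axis) of the a1 gene, 4 alpha-specific genes, 4 haploid-specific genes and 5 a-specific genes in each library of the pRS416 strains, high SAM (red) left of low SAM (blue), with bars at the group means. HMRA1 lies at 81.7 to 138 FPKM in high SAM and at 0 to 0.124 FPKM in low SAM, the alpha-specific and haploid-specific genes lie lower in high SAM, and MFA2 overlaps between the groups.

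The motif TACATCA, found in sites of the a1-alpha2 repressor, stood on either strand in the windows of 2 of these 20 genes, against 4.51% of 5810 windows, and the pheromone response element TGAAACA in 11 of 20, against 6.15%. The window of NEJ1, the haploid gene of smallest p, holds 1 such motif (reverse complement, in capitals, 150 bases upstream of the start codon), and that of STE4 none.
NEJ1 (chrXII:675556-675805, minus strand): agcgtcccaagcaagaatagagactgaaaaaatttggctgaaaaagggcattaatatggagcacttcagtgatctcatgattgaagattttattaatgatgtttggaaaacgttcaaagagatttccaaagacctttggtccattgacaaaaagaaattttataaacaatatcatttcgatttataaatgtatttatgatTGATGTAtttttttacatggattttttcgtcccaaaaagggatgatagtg

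Meiosis and sporulation genes fell in 18 of 21 cases and rose in 1 (median -1.01). SPR1 and SPR3, for a spore wall glucanase and a spore septin, averaged 10.4 FPKM in high SAM against 44.2 FPKM in low SAM and 4.56 FPKM in high SAM against 28.8 FPKM in low SAM. IME4, an mRNA methyltransferase that uses SAM, fell to 30.7 ± 1.44 FPKM in high SAM, against 107 ± 1.18 FPKM in low SAM; it overlaps the antisense transcript RME2 and the strand of its reads is not known. The kinase gene IME2 was the member that rose (log2 fold change 0.41, adjusted p = 0.0015).

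Most genes of the cell cycle and replication rose. Of 13 genes of G1 and S cyclins and their regulators 9 rose and 3 fell (median 0.88). The G1 cyclin gene CLN1 was at 241, 277 and 233 FPKM in the high-SAM libraries, against 12.8, 14.8 and 12.6 FPKM in the low-SAM libraries (log2 fold change 4.13, SE 0.09, adjusted p = 9.1e-10). CLN2 averaged 224 ± 23.7 FPKM in high SAM and 21.0 ± 1.75 FPKM in low SAM and CLN3 249 ± 31.7 FPKM in high SAM and 41.6 ± 3.97 FPKM in low SAM, whereas WHI5, a repressor of entry into the cycle, fell to 13.9 ± 1.74 FPKM in high SAM, against 33.2 ± 2.91 FPKM in low SAM. Of 12 mitotic genes 8 rose and 2 fell; the kinase gene CDC28 averaged 122 ± 9.64 FPKM in high SAM and 19.0 ± 2.26 FPKM in low SAM and the mitotic cyclin gene CLB2 13.3 ± 2.87 FPKM in high SAM and 2.04 ± 0.364 FPKM in low SAM. In replication and nucleotide supply 14 of 19 rose and 3 fell (median 1.03). RNR1, the large subunit of ribonucleotide reductase, had 180.4, 243 and 176 FPKM in the high-SAM libraries, against 6.37, 6.63 and 7.51 FPKM in the low-SAM libraries (log2 fold change 4.67, SE 0.12, adjusted p = 2.8e-09), whereas the small subunit genes RNR2 and RNR4 fell (-1.59 and -1.52). The helicase genes MCM2 and MCM3 rose (1.39 and 1.29), as did the polymerase gene POL1 (2.14). Of 10 histone genes 3 rose and 4 fell. The variant histone gene HTZ1 fell (-1.13).

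Most cell wall enzymes rose. Of 20 cell wall enzymes 16 rose and 2 fell (median 1.30). FKS1, the catalytic subunit of glucan synthase, had 357, 376 and 351 FPKM in the high-SAM libraries, against 38.6, 37.0 and 40.6 FPKM in the low-SAM libraries (log2 fold change 3.19, SE 0.06, adjusted p = 5.8e-10). SCW4, a homologue of SCW10, averaged 152 ± 7.96 FPKM in high SAM and 13.1 ± 1.20 FPKM in low SAM. DSE3, a daughter-cell gene, and BGL2, an abundant wall glucanase, were the 2 that fell (-1.78 and -0.68). Of 12 PIR and cell wall proteins 6 rose and 4 fell, with CCW12, for a major wall mannoprotein, at 3260.1, 4369 and 4225 FPKM in the high-SAM libraries, against 403, 477 and 534 FPKM in the low-SAM libraries and CWP1, for another, at 14.4 ± 2.01 FPKM in high SAM and 64.4 ± 6.34 FPKM in low SAM. Of 6 flocculation genes 1 rose and 5 fell: the adhesin gene FLO11 averaged 3.35 ± 0.108 FPKM in high SAM and 8.78 ± 0.906 FPKM in low SAM and its activator FLO8 rose (0.70).

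Most stress genes fell while most heat shock chaperones rose. Of 19 stationary phase and stress proteins 2 rose and 17 fell (median -1.41). SPG4, a stationary phase gene, was at 604, 678 and 644 FPKM in the high-SAM libraries, against 7334, 6889 and 7117 FPKM in the low-SAM libraries (log2 fold change -3.47, SE 0.09, adjusted p = 2.3e-09). RGI2, induced in respiratory growth, averaged 120.4 ± 11.5 FPKM in high SAM and 1541 ± 98.8 FPKM in low SAM and HBT1, a polarity gene, 214 ± 13.5 FPKM in high SAM and 1474 ± 36.2 FPKM in low SAM, whereas SPI1, a weak-acid stress wall protein, rose to 3478 ± 674 FPKM in high SAM, against 939.7 ± 36.8 FPKM in low SAM. Of 19 heat shock chaperones 16 rose and 2 fell (median 1.23). The mitochondrial chaperone genes HSP78 and HSP60 averaged 1635 ± 77.5 FPKM in high SAM and 283 ± 8.64 FPKM in low SAM, and 1006 ± 76.6 FPKM in high SAM and 345 ± 2.44 FPKM in low SAM. The Hsp70 gene SSA3 fell (-1.60). Of 22 antioxidant genes 5 rose and 13 fell; TRR1, for thioredoxin reductase, rose (1.66) and the catalase gene CTT1 fell (-1.77). Of 13 genes of folding in the endoplasmic reticulum 8 rose and 2 fell, with the unfolded protein response activator gene HAC1 at 662 FPKM in high SAM against 159 FPKM in low SAM and the chaperone gene KAR2 at 388 FPKM in high SAM against 168 FPKM in low SAM. The vacuolar protease genes PRB1 and PEP4 rose (1.94 and 1.18), and the autophagy genes ATG14 and ATG34 fell (-1.64 and -1.60).

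The isoforms of the plasma membrane proton pump moved apart. PMA1, the main pump, was at 904, 1181 and 951 FPKM in the high-SAM libraries, against 53.5, 54.1 and 59.1 FPKM in the low-SAM libraries (log2 fold change 4.15, SE 0.10, adjusted p = 1.9e-09), and PMA2, its minor isoform, at 22.7, 36.9 and 25.9 FPKM in the high-SAM libraries, against 308, 311 and 288 FPKM in the low-SAM libraries (log2 fold change -3.39, SE 0.15, adjusted p = 5.9e-08). Thus PMA1 was the higher isoform in all high-SAM libraries and PMA2 in all low-SAM ones. Of 13 multidrug transporters and regulators 5 rose and 7 fell, with PDR15 at 1.85 and QDR1 at -2.11 on the log2 scale.

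Most nitrogen scavenging genes fell. Under nitrogen catabolite repression, which silences these genes while good nitrogen sources last, 5 of 24 rose and 16 fell (median -0.84). The proline permease gene PUT4 had 3.36, 4.90 and 4.37 FPKM in the high-SAM libraries, against 326, 299.6 and 259 FPKM in the low-SAM libraries (log2 fold change -5.83, SE 0.12, adjusted p = 7.8e-10). DAL80, a GATA repressor of the group, was at 0.568, 0.424 and 0.458 FPKM with high SAM and 22.2, 25.1 and 23.5 FPKM with low SAM (log2 fold change -4.05, adjusted p = 5.4e-09), and the ammonium permease genes MEP1 and MEP2 averaged 40.4 ± 5.28 FPKM in high SAM and 256 ± 22.0 FPKM in low SAM, and 31.3 ± 4.09 FPKM in high SAM and 262 ± 22.6 FPKM in low SAM. The proline oxidation gene PUT2 rose (0.74). The glutamate dehydrogenase genes GDH1 and GDH3 fell (-2.66 and -3.15), as did BAT2, a cytosolic branched-chain aminotransferase (-1.90), within a list in which 9 of 15 rose and 5 fell. In lysine and arginine genes 11 of 18 rose and 4 fell; ARG3, for ornithine carbamoyltransferase, fell (-2.32). In the synthesis of other amino acids 14 of 29 rose and 10 fell. HOM3, of the steps shared by threonine and methionine synthesis, and THR1, of the threonine branch, rose (1.53 and 1.56). SER33 of serine synthesis fell (-1.42). In one-carbon and purine genes 8 of 22 rose and 12 fell. IMD2, for IMP dehydrogenase, was at 29.4, 23.6 and 34.9 FPKM with high SAM and 0.315, 0.338 and 0.439 FPKM with low SAM (log2 fold change 4.46, adjusted p = 1.4e-08).

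Most sterol genes rose and vitamin genes split. Of 16 genes from squalene to ergosterol 13 rose and 1 fell (median 0.71). The desaturase gene ERG3 had 1486, 1489 and 1614 FPKM in the high-SAM libraries, against 169, 170.4 and 157 FPKM in the low-SAM libraries (log2 fold change 3.20, SE 0.07, adjusted p = 1.2e-09), and ERG6, whose enzyme methylates sterols with SAM, averaged 167 ± 11.9 FPKM in high SAM and 44.8 ± 0.479 FPKM in low SAM. The C-14 reductase gene ERG24 fell (-1.33). Of 13 genes of phospholipid methylation and inositol 7 rose and 5 fell, the repressor gene OPI1 rising (1.19) and the activator gene INO2 falling (-1.21). Of 33 methyltransferase genes 15 rose and 13 fell, and the arginine methyltransferase gene HMT1 averaged 161 ± 4.95 FPKM in high SAM and 72.9 ± 3.88 FPKM in low SAM. The biotin synthesis genes BIO3 and BIO4 and the biotin transporter gene VHT1 rose (2.82, 4.24 and 2.92), and the nicotinate permease gene TNA1 and BNA1 of NAD synthesis fell (-3.28 and -2.33). Of 18 thiamine genes 7 rose and 6 fell; THI4, for thiazole synthase, fell to 58.8, 43.1 and 84.3 FPKM in the high-SAM libraries, against 424, 385 and 402 FPKM in the low-SAM libraries (log2 fold change -2.73, SE 0.20, adjusted p = 1.4e-06).

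Most coenzyme Q synthesis genes fell, 8 of 11, and 2 rose, against 38.4% of all features called lower and 39.1% called higher. Remaining lists were mixed. In the mevalonate pathway 4 of 9 rose and 2 fell, and among hypoxic and anaerobic genes 5 of 15 rose and 6 fell. In pyrimidine synthesis 6 of 11 rose and 4 fell.

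Most ribosome biogenesis genes rose, while genes of ribosomal proteins were mixed. Of 39 ribosome biogenesis genes 28 rose and 5 fell (median 0.52), NOP58, a snoRNP protein, at 95.2 ± 5.55 FPKM in high SAM and 31.9 ± 0.422 FPKM in low SAM. Of 32 proteasome genes 18 rose and 3 fell (median 0.24). Small ribosomal subunit genes rose in 17 and fell in 15 of 56 cases, and large subunit genes rose in 19 and fell in 28 of 81. Of all features 39.1% rose and 38.4% fell, so the 28 falls of 81 were no excess over all features in this fit. With quantile normalization 9 rose and 29 fell in the small subunit, so that the direction with more calls changed, and 10 rose and 39 fell among large ribosomal subunit proteins, where more genes fell under either scaling. Many ribosomal protein genes have close copies, so single values are uncertain. For the mitochondrial ribosome, 35 of 67 protein genes rose and 9 fell.

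A set of features was at or near 0 in high SAM. Of those with a mean of at least 10 FPKM in low SAM, 17 were under 0.1 FPKM in all 3 high-SAM libraries, and no feature showed the reverse. HMRA1, at a mean of 117 FPKM in high SAM with 2 reads in low SAM, missed this limit narrowly. It had 0.124 FPKM in low-SAM library 1 and 0 in the others. With limits of 0.5 and 5 FPKM, 31 features were near 0 in high SAM and 7 in low SAM. Of the 17, 4 stand side by side near the left end of chromosome XV. YOL164W-A, BDS1 (a sulfatase gene), YOL163W and YOL162W had means of 129.6, 60.5, 47.0 and 14.97 FPKM in low SAM. In high SAM 0 reads were seen on YOL164W-A, YOL163W and YOL162W, at least 1006-fold, 1018-fold and 412-fold lower against 3 reads over the group, and 2 reads on BDS1, a ratio of 7481 with an exact 95% interval of 2071 to 61781. The neighbours were chosen after their values were seen. On the side of the chromosome end, AAD15 averaged 6.82 FPKM in high SAM and 6.47 in low SAM, though a copy, AAD3, is 97.7% identical. On the other side, PAU20 had 0 reads in high SAM and YOL160W averaged 2.37 FPKM in high SAM and 8.63 in low SAM. Elsewhere TDA8 on chromosome I, YIL014C-A on chromosome IX and YCL021W-A on chromosome III had 0 reads in high SAM, at least 463-fold, 1244-fold and 168-fold lower. YER138W-A, YHR213W-B and YOR192C-C have near-identical copies elsewhere, so their values are uncertain. The other 7 of the 17 were the open reading frames YAR053W, YGL052W and YLR466C-B, the transfer RNA genes tM(CAU)O1, tP(UGG)M and tV(AAC)L, and 1 transcript listed without a gene name, none of which was matched to the reference. Most of the 17 were also at 0 in the high-SAM bikaverin strain, as given below. Whether these stretches are present in the genome of YJ-09 was not tested.

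**Figure D4:**
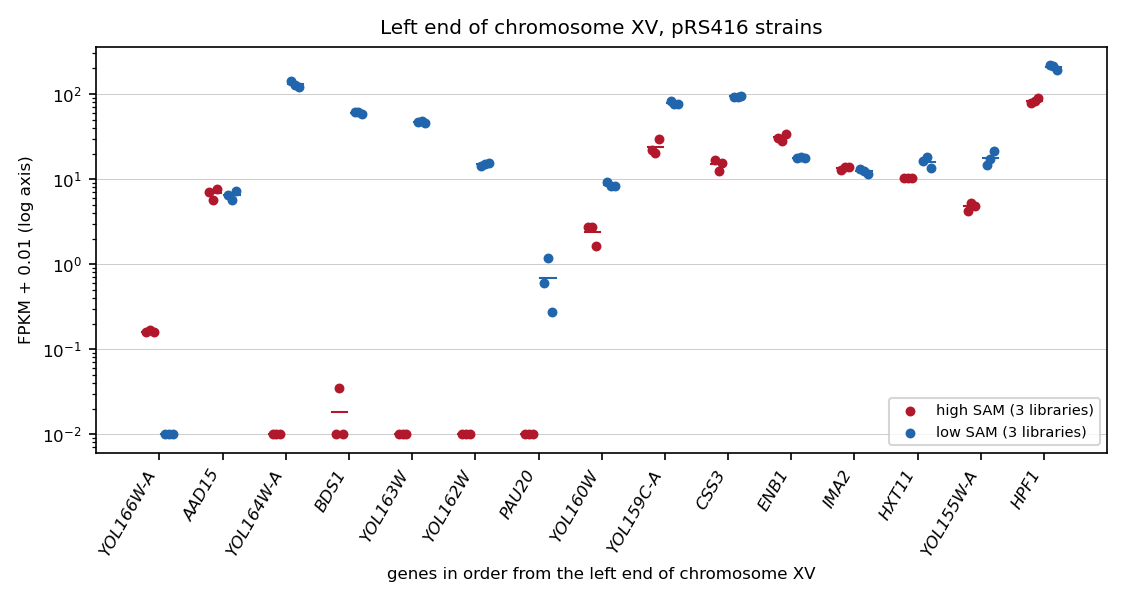
FPKM plus 0.01 (log axis) of the genes at the left end of chromosome XV, in their order along the chromosome, in each library of the pRS416 strains, high SAM (red) left of low SAM (blue), with bars at the group means. YOL164W-A to PAU20 lie at or near 0 in all high-SAM libraries, between AAD15 and YOL160W, which have reads in both groups.

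All 5 DUP240 family genes listed here, mostly of unknown function, fell (median -1.97), against 38.4% of all features called lower. The list may not hold the whole family. PRM8 averaged 2.34 ± 0.281 FPKM in high SAM and 73.0 ± 4.05 FPKM in low SAM after UIP3, and MST27 and MST28 are close copies of each other. Of the auxotrophic marker loci, URA3, which is also the marker of pRS416, had 1125, 718 and 1334 FPKM in the high-SAM libraries, against 1624, 1517 and 1539 FPKM in the low-SAM libraries (log2 fold change -0.60, SE 0.19, adjusted p = 0.018), a call lost without low-SAM library 1 (adjusted p = 0.057). TRP1 overlapped between the groups (log2 fold change -0.10, adjusted p = 0.51). HIS3, LYS2 and MET17 rose (1.02, 1.13 and 0.47), and ADE2 and the arginine permease gene CAN1 fell (-0.80 and -0.92). LEU2 was higher (log2 fold change 0.26, adjusted p = 0.0092), a call lost with quantile scaling (adjusted p = 0.28).

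The response of the pRS416 strains was set against that of the bikaverin strains by testing the difference of the log2 fold changes in 1 limma fit of all 12 libraries. The tables of the pairs were made separately, and each difference of high and low SAM was taken within its table. Of 6400 features, 1857 (29.0%) had a more positive change in the pRS416 pair and 1779 (27.8%) a more negative one, 56.8% in all. In the bikaverin pair alone 1863 of 6459 features rose (28.8%) and 1799 fell (27.9%). Respiratory genes differed throughout. All 11 genes of complex III and cytochrome c, 9 of complex IV and 15 of ATP synthase had a more positive change in the pRS416 pair, and of these 35 genes the bikaverin pair showed 3 that rose and 29 that fell. HAP4 was at 126 ± 6.83 FPKM in high SAM and 281 ± 21.1 FPKM in low SAM in the bikaverin strains (difference of log2 fold changes 4.97, SE 0.18, adjusted p = 1.2e-09). The alpha-specific genes went in opposite directions: all 4 fell in the pRS416 pair and all 4 rose in the bikaverin pair, MF(ALPHA)1 at 1221 ± 435 FPKM in high SAM and 378 ± 56.1 FPKM in low SAM there (difference of log2 fold changes -8.89, SE 0.28, adjusted p = 6.1e-10). HMRA1 averaged 1.10 ± 0.295 FPKM in high SAM and 0.0534 ± 0.0925 FPKM in low SAM in the bikaverin strains (difference of log2 fold changes 5.80, SE 0.30, adjusted p = 1.5e-08).

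Sulfur genes also differed. In sulfate uptake and reduction 10 of 11 genes had a more negative change in the pRS416 pair, MET5 by -2.93 and MET14 by -3.07 on the log2 scale. The core CACGTG of Cbf1 sites stood in 9 of the 11 windows of this list, against 3.79% of 5810 windows. ZRT1 averaged 753 ± 68.9 FPKM in high SAM and 2889 ± 162 FPKM in low SAM in the bikaverin strains (difference of log2 fold changes 5.81, SE 0.14, adjusted p = 5.3e-11), so the zinc transporter gene moved in opposite directions. SAM1 averaged 483 ± 55.1 FPKM in high SAM and 149 ± 31.9 FPKM in low SAM there, and its changes in the 2 pairs were not told apart (difference of log2 fold changes 0.12, SE 0.19, adjusted p = 0.61). In beta-oxidation 14 of 16 genes fell in the bikaverin pair as well, while 11 had a less negative or more positive change in the pRS416 pair. The 39 ribosome biogenesis genes had 35 that rose in the bikaverin pair, and for 21 the change in the pRS416 pair was more negative. BDS1 and its neighbours were also near 0 in the high-SAM bikaverin strain, and UIP3 averaged 0.0306 ± 0.0530 FPKM in high SAM and 137 ± 8.68 FPKM in low SAM there. TDA8, YIL014C-A and YCL021W-A averaged 0 FPKM in high SAM in the bikaverin strains, against 57.9, 92.2 and 18.3 FPKM in low SAM. The remaining named features of the near-0 set were at 0 in the high-SAM bikaverin strain too, except YLR466C-B at 0.349 FPKM. Of these, tM(CAU)O1 averaged only 0.524 FPKM in low SAM there.

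**Figure D5:**
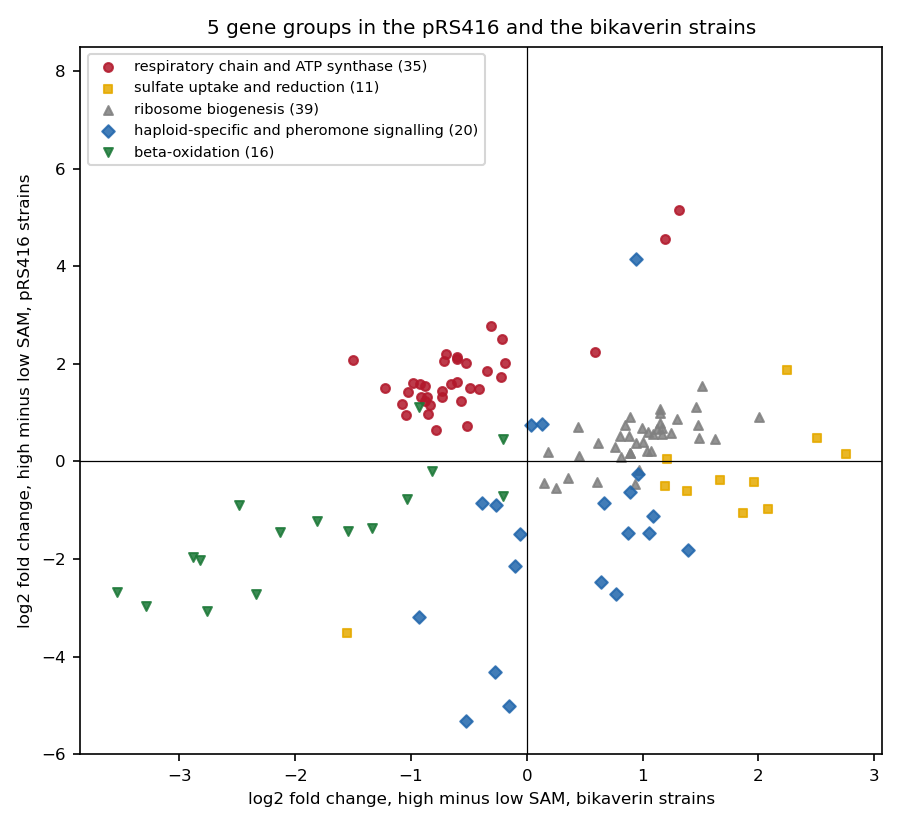
Log2 fold change (high SAM minus low SAM, of log2(FPKM + 1)) in the pRS416 pair (y axis) against that in the bikaverin pair (x axis) for the genes of 5 groups, 1 point per gene, with the number of genes in the legend. Most respiratory chain genes lie above 0 for pRS416 and below 0 for bikaverin, and most sulfate genes lie to the right of 0, below their bikaverin values.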

How the data were processed

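RNA from the 4 strains was sequenced at 36 h, and samples were joined to table columns by the library names and titles, which the column headers carry. The sample descriptions name other columns for both tables (YJ-05 and YJ-06 in place of YJ-08 and YJ-09, YJ-02 and YJ-03 in place of YJ-04 and YJ-06). The headers hold only the library names, and every comparison rests on this join. Per the submitters' processing notes, the authors used fastp, HISAT2 2.0.5 and featureCounts 1.5.0-p3 on R64; the sources used here give no strand setting, gene annotation or filter. The authors deposited FPKM values per feature, 1 table for each pair. FPKM are not counts, so limma 3.58.1 (R 4.3.3) with an intensity trend was fitted to log2(FPKM + 1) of the features kept (mean of 1 FPKM or more), with Benjamini-Hochberg adjustment at 0.05 and no block for replicate number. Depth was recovered from the steps of FPKM times exonic length, and 97.4% to 97.9% of values under 1000 reads came out within 0.02 of a whole read. Read intervals and floors of 3 reads cover counting error only. Of 6818 features, 5934 (87.0%) matched the RefSeq R64 annotation. Near copies share at least 90% identity over at least 50% of length (BLAST+ 2.17.0). Promoter windows of 250 bases begin 350 bases upstream of the start codon and were searched on both strands for the motif CCAAT, for the motif GCACCC, for the motif TACATCA, for the motif TGAAACA and for the motif CACGTG.

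The rule for genes to name selected the methyl cycle genes SAM1, SAM2, SAH1, ADO1 and MET6; the 12 largest rises and 12 largest falls among called features that did not overlap and averaged at least 10 FPKM in the higher group; up to 4 called members of smallest p of each list and up to 2 that moved against its majority; features near 0 in 1 group; all mating-type, a-specific, alpha-specific and marker genes; the 5 largest and 5 smallest differences between pairs; and the genes whose windows are printed. Of each list, only some of the genes selected are described. The members, lists and tests were chosen with earlier results of these data known. The fits were tested on simulated data. Alternatives were pseudocounts of 0.1 and 5, no minimum and a minimum of 10 FPKM, quantile and equal-sum scaling, no trend, robust moderation, a replicate block and leaving out each library.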

Additional observations from a re-analysis of the deposited data

Results flagged for a closer look

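These results stood out because the change between high and low SAM in the pRS416 pair differed from that in the bikaverin pair by a test of the difference itself (limma, 12 libraries, adjusted over 6400 features). The change was more positive for 1857 features and more negative for 1779. Among features with at least 10 FPKM in 1 pRS416 group, the 5 most positive differences of log2 fold changes were CIS3 at 6.61, ZRT1 at 5.81, HMRA1 at 5.80, PCL1 at 5.29 and the small nucleolar RNA snR30 at 5.02. The 5 most negative were MF(ALPHA)1 at -8.89, THI4 at -6.76, YDL218W at -6.17, YCL048W-A at -5.97 and STE18 at -4.86. No explanation of these differences was tested.

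Reads were also listed on genes of the introduced bikaverin module in the pRS416 libraries, whose strains were not labelled as carrying it. The highest value was 1.26 FPKM, for PPT in high-SAM library 1. All 6 such features were at 0 in high-SAM library 2. How these reads arose was not tested.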

How the results depend on the processing

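Under every alternative run for the pRS416 pair, the counts stayed within 1.5 times 2481 higher and 2437 lower features. They were 2479 and 2437 with a pseudocount of 0.1, 2511 and 2514 without a minimum, 2296 and 2185 with a minimum of 10 FPKM, 2443 and 2526 with quantile scaling, and 2643 and 2196 with equal sums of FPKM. Leaving out 1 library at a time gave 2320 to 2470 higher and 2250 to 2470 lower features, and for the difference between pairs 1686 to 1867 and 1599 to 1783. Replicate numbers did not pair the libraries: deviations of same-numbered libraries from their group means correlated at -0.13, -0.03 and -0.14. With the replicate block, 2415 features were higher and 2400 lower, and for the difference between pairs 1768 and 1677. Of 343 called genes selected by the naming rule, 335 kept their call and direction in every setting. The difference between pairs of YLR466C-B turned to -0.18 with a pseudocount of 0.1. Its high-SAM means were 0 FPKM in the pRS416 pair and 0.349 FPKM in the bikaverin pair, levels at which the fold change depends on the pseudocount. With a minimum of 10 FPKM, 4 phosphate, 2 a-specific and 3 flocculation genes were lower, against 7, 4 and 5, as fewer genes were tested. With quantile scaling 7 proteasome genes were lower, against 3.

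There is 1 strain for each level of SAM, so effects of SAM and of strain cannot be told apart. FPKM are relative to the library, and changes in total RNA per cell are not seen in them. Features with few reads, such as HMRA1 in low SAM, have wide counting intervals.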
